A study of Mus musculus with 8 samples.

Results

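Leydig cells lie between the seminiferous tubules and make the androgens that spermatogenesis depends on. Luteinizing hormone binds its receptor Lhcgr and raises cyclic AMP, after which Star carries cholesterol to the inner mitochondrial membrane. There Cyp11a1, fed with electrons by the ferredoxin Fdx1, cleaves cholesterol to pregnenolone. Steroid dehydrogenase-isomerases of the Hsd3b family, the hydroxylase and lyase Cyp17a1 and the dehydrogenase Hsd17b3 complete the path to testosterone. Insl3 is a peptide hormone of Leydig cells, and Nr5a1 is the nuclear receptor that regulates many steroid synthesis genes.

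The 10 genes Star, Lhcgr, Cyp11a1, Cyp17a1, Hsd3b1, Hsd3b6, Hsd17b3, Insl3, Fdx1 and Nr5a1 were taken from a list of androgen synthesis and Leydig cell genes by symbol. All 10 were among the 24988 genes of the matrix, and all 10 were among the 22027 that passed a filter on low values (0.5 CPM or more on average across the 8 libraries). The 8 RNA-seq libraries came from whole testis of adult mice, 4 labelled Kpna2-/- knockout and 4 labelled wild type. The product of Kpna2 is an importin alpha, which carries cargo proteins into the nucleus. The labels give no strain, exact age, treatment, Cre driver or other allele for either group, and leave unstated whether each library is a separate animal. The p-values therefore measure the spread between these libraries only.

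The libraries held between 31133443 and 37797812 reads, and Kpna2 was not lower in those labelled knockout (13.9 ± 1.11 CPM in the wild-type group, 19.2 ± 2.76 CPM in the knockout group, SD, n = 4 each, limma adjusted p = 0.0079). The target gene goes against the label, so groups are called by label throughout. A value summed over a gene does not tell which of its exons were read. CPM are the deposited scaled read counts, whose library totals were 990244 to 1025489, given as mean ± SD with n = 4. Log2 fold changes are knockout label minus wild-type label on the scale of log2(CPM + 0.5). "Rose" and "fell" are used for genes with a limma adjusted p under 0.05 over all 22027 genes. The level of a gene in whole tissue cannot tell fewer cells of a type from less RNA per cell.

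Of the 10 genes, 5 fell (Star, Lhcgr, Cyp11a1, Cyp17a1 and Fdx1), 1 rose (Hsd3b1) and 4 were not called (Hsd3b6, Hsd17b3, Insl3 and Nr5a1). Of all tested genes, 8.32% fell and 8.62% rose. The same 6 genes were called by edgeR (8.16% of all genes lower, 8.61% higher) and by DESeq2 (8.75% lower, 9.31% higher). The median log2 fold change of the 10 genes was -0.31, against -0.01 for all tested genes. The 10 genes were chosen with earlier results of these data known, so these comparisons with all genes are descriptive only. For the 6 called genes the 4 libraries labelled knockout did not overlap the 4 labelled wild type, and for the other 4 they did. Such separation was found for 20.9% of all tested genes. The 5 genes that fell included the hormone receptor, the cholesterol carrier, the side-chain cleavage enzyme with its electron donor, and the lyase. The 4 genes that were not called included the last enzyme of testosterone synthesis, the peptide hormone and the nuclear receptor.

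**Figure D1:**
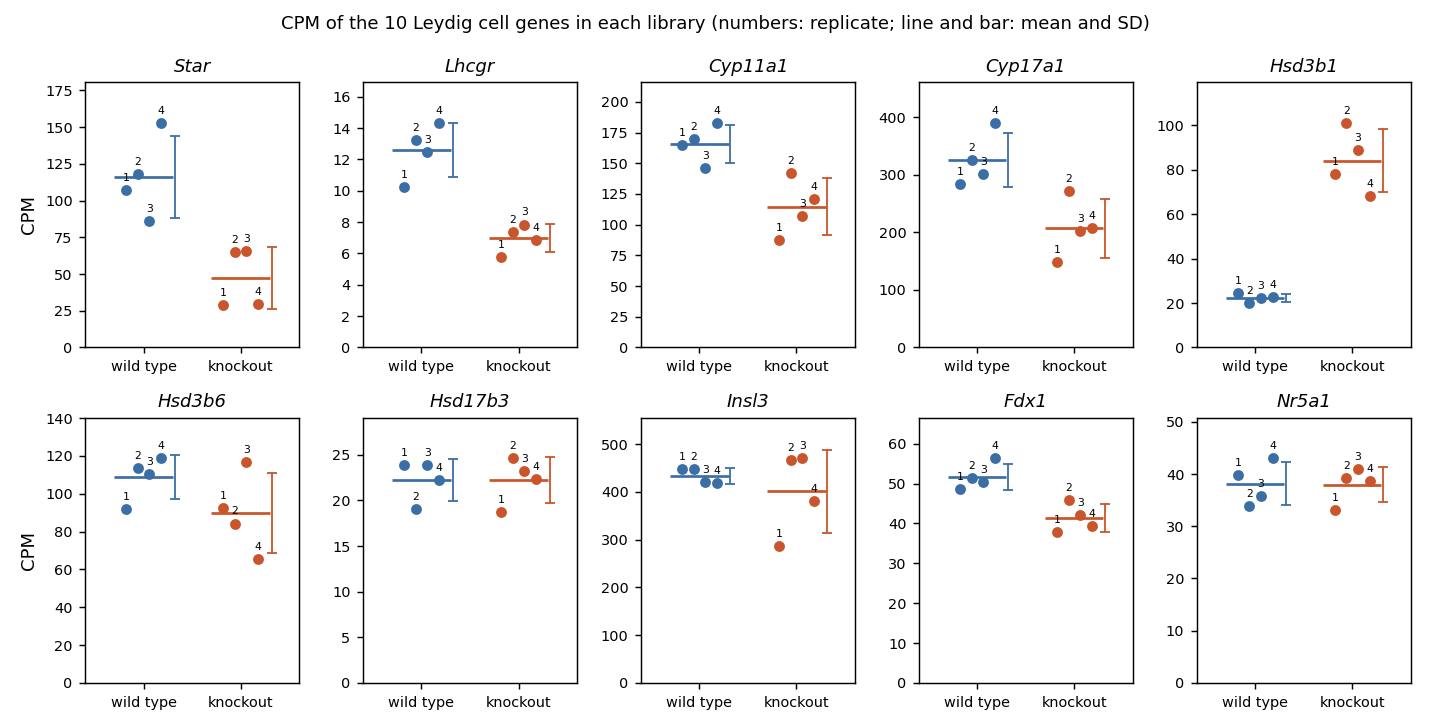
CPM of the 10 Leydig cell genes (y axes, from 0) in the 4 libraries labelled wild type (blue) and the 4 labelled knockout (orange), with replicate numbers beside the points and lines and bars for the mean and SD. Star, Lhcgr, Cyp11a1, Cyp17a1 and Fdx1 are lower and Hsd3b1 is higher in all 4 libraries labelled knockout, while the groups overlap for Hsd3b6, Hsd17b3, Insl3 and Nr5a1.

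The pair Hsd3b1 and Hsd3b6 encode close copies of the same enzyme activity. Hsd3b6 is known as the form of adult Leydig cells, and Hsd3b1 is known from Leydig cells and the adrenal. Their sequences are shown because the copies gave different results and because reads can be assigned only where they differ. Their coding sequences, read from GENCODE M21 transcripts as the longest open reading frame, were both 1122 bases long and identical at 1010 of 1122 aligned bases (90.02%), with a longest identical run of 72 bases. In the first 120 coding bases, 5′ to 3′ from the start codon, 20 bases differ, shown in capitals.
Hsd3b1: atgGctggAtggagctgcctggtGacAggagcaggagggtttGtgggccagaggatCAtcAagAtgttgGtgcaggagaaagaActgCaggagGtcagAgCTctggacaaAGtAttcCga
Hsd3b6: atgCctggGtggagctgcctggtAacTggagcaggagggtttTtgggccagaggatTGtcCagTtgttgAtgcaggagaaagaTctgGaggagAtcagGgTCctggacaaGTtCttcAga

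Of 1806 windows of 50 bases in the Hsd3b1 transcript, 90 (4.98%) also occurred in a transcript of another gene, 38 of them in Hsd3b6. For Hsd3b6 the count was 281 of 1753 windows (16.0%), shared with other genes of the family, unnamed gene models and Mapkap1. At 100 bases no window of Hsd3b1 and 56 of 1703 windows of Hsd3b6 (3.29%) were shared. Neither read length nor the handling of multiply matching reads is known here, which leaves the values of both genes uncertain. Hsd3b2, Hsd3b3, Hsd3b4, Hsd3b5, Hsd3b7, Hsd3b8 and Hsd3b9 were looked up by symbol, and no row of the matrix matched them.

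The region upstream of a gene's start is where the factors of steroid synthesis genes bind. RefSeq promoters of GRCm38.p6 were found for 7 of the 10 genes, not for Star, Cyp17a1 and Nr5a1. The 250 bases before the start are printed 5′ to 3′ for the Hsd3b pair, which differed in outcome, and for Lhcgr and Fdx1, which fell. Capitals mark GATAA or its reverse complement TTATC, a form of the GATA core recognised by GATA factors such as Gata4. Other forms of that core, such as gatag in the Hsd3b1 window, were not searched and are not marked.
Hsd3b1, chr3:98859795-98860044, minus strand: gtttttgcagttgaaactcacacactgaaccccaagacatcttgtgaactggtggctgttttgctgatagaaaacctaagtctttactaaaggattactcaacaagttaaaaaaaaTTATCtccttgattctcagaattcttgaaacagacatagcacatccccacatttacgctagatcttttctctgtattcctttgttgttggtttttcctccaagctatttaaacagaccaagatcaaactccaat
Hsd3b6, chr3:98814444-98814693, minus strand: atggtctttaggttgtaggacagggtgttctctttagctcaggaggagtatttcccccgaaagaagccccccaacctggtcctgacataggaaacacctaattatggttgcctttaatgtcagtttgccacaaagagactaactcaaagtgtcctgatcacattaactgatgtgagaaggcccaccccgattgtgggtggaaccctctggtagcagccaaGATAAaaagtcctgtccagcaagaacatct
Lhcgr, chr17:88792015-88792264, minus strand: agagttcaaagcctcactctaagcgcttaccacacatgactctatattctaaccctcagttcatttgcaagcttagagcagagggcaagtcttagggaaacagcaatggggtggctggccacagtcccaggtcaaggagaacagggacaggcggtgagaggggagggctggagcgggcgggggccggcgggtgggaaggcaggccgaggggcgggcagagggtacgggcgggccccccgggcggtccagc
Fdx1, chr9:51963603-51963852, minus strand: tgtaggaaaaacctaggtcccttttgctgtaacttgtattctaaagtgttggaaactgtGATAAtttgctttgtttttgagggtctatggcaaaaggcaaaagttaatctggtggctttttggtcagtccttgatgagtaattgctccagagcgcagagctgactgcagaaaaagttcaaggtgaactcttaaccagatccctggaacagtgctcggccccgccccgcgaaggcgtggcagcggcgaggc

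GATAA on either strand was in the window of 3 of the 7 genes (Hsd3b1, Hsd3b6 and Fdx1), against 22.6% of all 32851 RefSeq promoter windows of the same length. The 7 genes had 8 windows, with more than a single window for Cyp11a1. Cyp11a1, which also fell, is not printed and had no GATAA in its windows. GATAA began 134 bases before the start in Hsd3b1, 30 bases in Hsd3b6 and 191 bases in Fdx1. AAGGTCA, a core sequence that Nr5a1 binds, was searched on both strands and was in none of the 7 genes' windows, against 4.08% of all windows. With AAGGTCA absent, an overlap of the motifs in these windows was not possible. The base composition differed, with a GC content of 36.4% upstream of Hsd3b1, 47.2% for Hsd3b6, 48.0% for Fdx1 and 63.2% for Lhcgr.

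The receptor came first in order of the pathway. Lhcgr (ENSMUSG00000024107, chromosome 17, 88716481 to 88791990 in GRCm38) stood at 10.3, 13.2, 12.5 and 14.3 CPM in wild-type replicates 1 to 4 and at 5.78, 7.38, 7.84 and 6.87 CPM in the libraries labelled knockout. Every library labelled knockout lay below the lowest labelled wild type. The mean fell from 12.6 ± 1.72 to 6.97 ± 0.887 CPM, a 1.81-fold difference, with a log2 fold change of -0.81 (SE 0.11, limma adjusted p = 0.00027). Lhcgr was the least abundant of the 10 genes, with 198 to 547 reads per library.

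Star, the cholesterol carrier (ENSMUSG00000031574, chromosome 8, 25806555 to 25815982 in GRCm38), showed the largest fall of the 10 genes. Its values were 107, 118, 86.1 and 153 CPM in the wild-type group, and 29.1, 65.2, 65.9 and 29.5 CPM in the knockout group. Knockout replicates 1 and 4 were lower than replicates 2 and 3, yet the latter were also below every wild-type library. The mean fell from 116 ± 27.9 to 47.4 ± 20.9 CPM (2.45-fold), with a log2 fold change of -1.36 (SE 0.25, limma adjusted p = 0.0019). Without knockout replicates 1 and 4 together, a comparison added after the values were seen, the log2 fold change was -0.79 (limma adjusted p = 0.0055). The spread within a group was wide for Star, at 24.1% of the mean in the wild-type group, and 44.2% in the knockout group.

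Cyp11a1, which makes pregnenolone (ENSMUSG00000032323, chromosome 9, 58006411 to 58027023 in GRCm38), stood at 165, 170, 146 and 183 CPM and at 87.8, 142, 107 and 121 CPM. The highest library labelled knockout, replicate 2, was close under the lowest labelled wild type, replicate 3. The mean fell 1.45-fold, from 166 ± 15.3 to 115 ± 23.0 CPM, with a log2 fold change of -0.55 (SE 0.11, limma adjusted p = 0.0045). Fdx1, its electron donor (ENSMUSG00000032051, chromosome 9, 51943306 to 51963556 in GRCm38), stood at 48.7, 51.4, 50.5 and 56.4 CPM and at 37.9, 46.0, 42.1 and 39.3 CPM. Its fall was the smallest of the 5, from 51.7 ± 3.30 to 41.3 ± 3.55 CPM (1.25-fold), with a log2 fold change of -0.32 (SE 0.07, limma adjusted p = 0.0051). Without knockout replicates 1 and 4 together Fdx1 was not called (log2 fold change -0.23, limma adjusted p = 0.069).

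Cyp17a1, which turns progestins into androgens (ENSMUSG00000003555, chromosome 19, 46667165 to 46673172 in GRCm38), stood at 284, 327, 302 and 391 CPM and at 148, 272, 202 and 207 CPM. The groups did not overlap, with wild-type replicate 1 and knockout replicate 2 nearest to each other. The mean fell from 326 ± 46.6 to 207 ± 51.0 CPM (1.57-fold), with a log2 fold change of -0.67 (SE 0.14, limma adjusted p = 0.0048). The CPM of Cyp17a1 per CPM of Cyp11a1 was 1.96 ± 0.181 and 1.80 ± 0.117 under the 2 labels, with overlap between the groups.

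Hsd3b1 (ENSMUSG00000027871, chromosome 3, 98852194 to 98859794 in GRCm38) was the one gene that rose. It stood at 24.5, 20.1, 22.1 and 22.9 CPM in the wild-type group, and 77.9, 101, 88.7 and 68.1 CPM in the knockout group. The lowest library labelled knockout was well above the highest labelled wild type. The mean rose 3.75-fold from 22.4 ± 1.84 to 83.9 ± 14.2 CPM, with a log2 fold change of 1.87 (SE 0.10, limma adjusted p = 2.6e-08). Its neighbour and copy Hsd3b6 (ENSMUSG00000027869, chromosome 3, 98805504 to 98814443 in GRCm38) stood at 92.0, 114, 111 and 119 CPM and at 92.6, 84.3, 117 and 65.7 CPM. These groups overlapped, with replicates 1 and 3 of the knockout label inside the wild-type range, and replicates 2 and 4 below it. Its log2 fold change was -0.30 (95% interval -0.58 to -0.01, limma adjusted p = 0.15), without knockout replicate 3 it was -0.43 (limma adjusted p = 0.014) and without knockout replicate 4 it was -0.16 (limma adjusted p = 0.38).

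The CPM of Hsd3b1 per CPM of Hsd3b6 was 0.266, 0.177, 0.200 and 0.193 in the wild-type group, and 0.841, 1.20, 0.758 and 1.04 in the knockout group. The groups did not overlap in this ratio. The sum of both genes was 131 ± 10.6 and 174 ± 30.4 CPM, and here knockout replicate 4 (134 CPM) lay inside the wild-type range of 116 to 142 CPM. Both quantities were formed after the values were seen and were not tested.

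Hsd17b3, the last enzyme on the way to testosterone (ENSMUSG00000033122, chromosome 13, 64058266 to 64089230 in GRCm38), stood at 23.9, 19.0, 23.9 and 22.2 CPM and at 18.8, 24.6, 23.2 and 22.4 CPM. The groups covered nearly the same range, and the 95% interval of the log2 fold change was -0.20 to 0.20 (limma adjusted p = 0.99). Nr5a1, the nuclear receptor (ENSMUSG00000026751, chromosome 2, 38692656 to 38714542 in GRCm38), stood at 39.8, 33.8, 35.9 and 43.1 CPM and at 33.0, 39.3, 41.0 and 38.7 CPM. Its values overlapped in the same way, with an interval of -0.18 to 0.17 (limma adjusted p = 0.98).

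Insl3, the peptide hormone (ENSMUSG00000079019, chromosome 8, 71689214 to 71690575 in GRCm38), stood at 448, 448, 420 and 419 CPM in the wild-type group, and 287, 466, 471 and 381 CPM in the knockout group. Replicates 2 and 3 of the knockout label were above every wild-type library and replicates 1 and 4 below every one. The log2 fold change was -0.14 (95% interval -0.39 to 0.12, limma adjusted p = 0.47). Its sign rested on knockout replicate 1, without which it was 0.01 (limma adjusted p = 0.93), and without knockout replicates 1 and 4 together it was 0.11 (limma adjusted p = 0.24). Insl3 shares 404 exon bases (64.8% of its own) with Jak3, a kinase gene on the same strand, in GENCODE M21. Jak3 measured 15.7 ± 0.631 and 15.5 ± 2.74 CPM (limma adjusted p = 0.86). The rule for reads in the shared exons is unknown here, so the level of Insl3 is uncertain. Of the other 9 genes, Cyp11a1 alone shared exon bases with another gene, 145 bases (3.02%) with Gm17322.

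**Figure D2:**
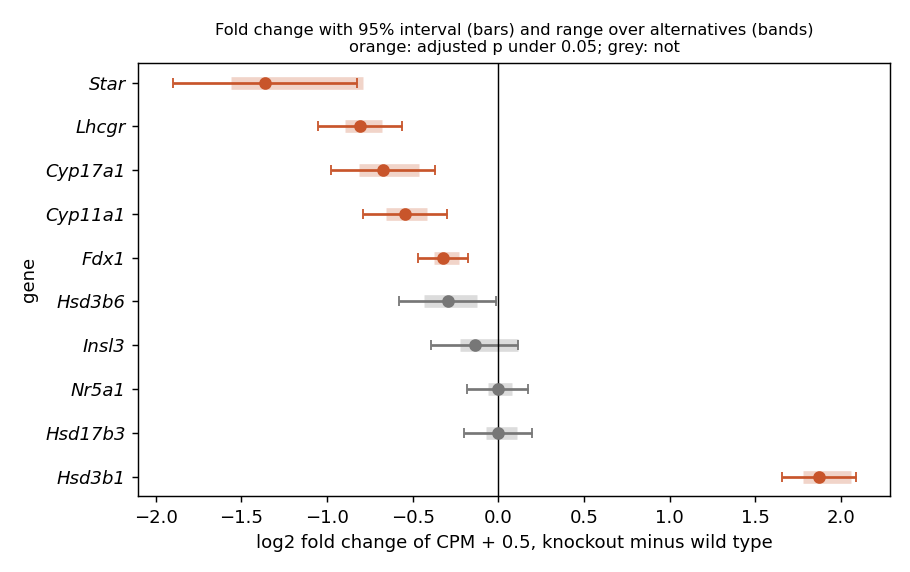
Log2 fold change of CPM + 0.5 (x axis, knockout label minus wild-type label) of the 10 genes (y axis), with 95% intervals from limma as bars and the range over the 19 alternative analyses as wide bands. Star is farthest to the left at -1.36 and Hsd3b1 farthest to the right at 1.87, and the bands of the 6 called genes, in orange, stay on their side of 0.

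Levels were compared between genes per kilobase of exon (CPM per kb of the union of GENCODE M21 exons). This length was 4804 bases for Cyp11a1 and 3104 for Fdx1, whose transcripts of longest reading frame have 2120 and 875 bases. For Hsd3b6 both lengths were 1802 bases. The order below therefore depends on the length used, and the order by transcript length was not worked out. Under the wild-type label the order was Insl3 (696 ± 26.4), Cyp17a1 (118 ± 16.8), Hsd3b6 (60.4 ± 6.49), Cyp11a1 (34.5 ± 3.19), Star (28.2 ± 6.79), Fdx1 (16.7 ± 1.06), Hsd17b3 (16.0 ± 1.65), Hsd3b1 (12.1 ± 0.993), Nr5a1 (8.996 ± 0.967) and Lhcgr (1.65 ± 0.225). Of neighbours in this order, Cyp11a1 and Star, and Fdx1 and Hsd17b3, overlapped in their library values, and the others did not. Under the knockout label Hsd3b1 stood next below Hsd3b6, with 45.3 ± 7.66 CPM per kb, and overlapped it (49.9 ± 11.8). Star stood above Nr5a1 and Lhcgr only, with 11.5 ± 5.09 CPM per kb, overlapping Fdx1 (13.3 ± 1.14) and Nr5a1 (8.96 ± 0.811).

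The libraries labelled knockout differed among themselves. Replicate 1 was the lowest of its group for 8 of the 10 genes and replicate 4 for the other 2, and replicates 2 and 3 were each the highest for 5. Under the wild-type label replicate 4 was the highest for 7 of the 10. The summed level of the 10 genes was 1209 to 1423 CPM in the wild-type group. Under the knockout label it was 817 CPM in replicate 1, 1249 in replicate 2, 1166 in replicate 3 and 980 in replicate 4. Relative to Insl3 in the same library, Star stood at 0.239, 0.264, 0.205 and 0.365 in the wild-type group, against 0.101, 0.140, 0.140 and 0.077 in the knockout group. The groups did not overlap in this ratio, nor in those of Lhcgr, Cyp11a1 and Cyp17a1 to Insl3. These ratios were formed after the values were seen and were not tested. No ratio to Insl3 was formed for Fdx1, which also fell, so separation is not shown for every gene that fell. Separation in a ratio to Insl3 was not counted over all genes, and the level of Insl3 is itself uncertain.

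**Figure D3:**
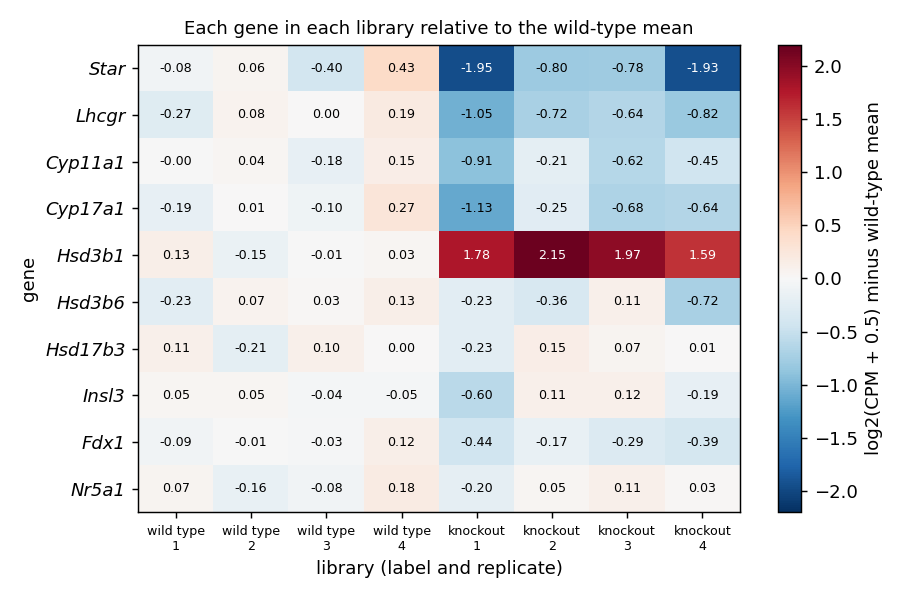
Log2(CPM + 0.5) minus the wild-type mean (colour and printed value) of the 10 genes (rows) in each library (columns). Star is at -1.95 and -1.93 in knockout replicates 1 and 4 and at -0.80 and -0.78 in replicates 2 and 3, while Hsd3b1 is between 1.59 and 2.15 in all 4.

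Markers of other cell types in whole testis were read in the same libraries, and their counts stand beside the 8.32% of all tested genes that fell and the 8.62% that rose. Spermatid markers (8 genes, none called) summed to 21648 to 22899 CPM and to 18865 to 24698 CPM under the 2 labels. Of 8 peritubular myoid markers 4 fell, and their summed level was 408 to 485 CPM in the wild-type group, and 358 to 374 CPM in the knockout group. Of 14 Sertoli cell markers 4 fell (1549 to 1646 and 1353 to 1562 CPM), of 8 endothelial markers 2 fell (43.1 to 47.7 and 34.1 to 41.7 CPM), and of 10 macrophage markers 1 fell (96.8 to 109 and 83.0 to 111 CPM). Of 9 tested adipocyte markers 2 fell, and the 10 measured summed to 35.4 to 54.4 CPM in the wild-type group, and to 25.95, 34.0, 39.4 and 24.9 CPM in knockout replicates 1 to 4. Of 5 red blood cell markers 1 fell, of 8 spermatocyte markers 1 rose and 1 fell, and of 2 tested epididymal markers 1 rose. No marker of the first 6 lists rose, and none was at 0 in all libraries. The adipocyte sum was thus lowest in the same 2 knockout libraries as Star and Insl3, replicates 1 and 4. In the spermatid, peritubular myoid, Sertoli, endothelial and macrophage sums the 2 lowest knockout libraries were not this pair. The part of these cell types in the results above was not tested.

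Further genes known from Leydig cells went both ways: of 14, 2 rose and 3 fell (8.62% and 8.32% of all tested genes). Ptgds, prostaglandin D synthase, rose from 149 ± 47.2 to 312 ± 65.2 CPM (limma adjusted p = 0.0015). Bhmt, a methyltransferase of methionine synthesis, rose from 40.2 ± 6.32 to 68.4 ± 14.0 CPM (limma adjusted p = 0.0016). Aldh1a1, a retinaldehyde dehydrogenase, fell from 292 ± 22.6 to 197 ± 15.1 CPM (limma adjusted p = 4.1e-05), and the weakly expressed Thbs2 and Cyp11b1 fell as well. Ephx1, Gstm1, Gstm2, Vcam1, Prlr and Ces1d were among the 9 not called, and the summed level of the 14 was 963 to 1097 and 1035 to 1333 CPM.

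The wider pathway was read from 8 lists chosen by textbook role. Their values are of whole testis and do not tell which cell type held the RNA, so they do not describe Leydig cells alone. Of 94 tested genes 10 fell (10.6%) and 9 rose (9.57%), near the shares of all tested genes. The median log2 fold change was -0.06. These counts depended on single libraries: they ranged from 5 to 13 for falls and from 4 to 9 for rises when 1 library was left out.

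In cholesterol supply, 1 of 11 genes fell. Stard4, a soluble cholesterol carrier related to Star, fell from 12.4 ± 1.48 to 6.79 ± 1.32 CPM (1.83-fold, limma adjusted p = 0.00044). Scarb1, the receptor that takes up cholesterol from lipoproteins, measured 131 ± 18.7 and 126 ± 5.22 CPM, and Lipe, the lipase that frees stored cholesterol, at 379 ± 10.1 and 387 ± 17.2 CPM (limma adjusted p = 0.73 and 0.72). Of 6 electron donors and redox partners, Cyb5r3, a cytochrome b5 reductase, fell from 49.2 ± 2.58 to 42.5 ± 3.58 CPM (limma adjusted p = 0.041), a call lost in 8 of 19 alternatives. Fdxr, which reduces Fdx1, measured 36.4 ± 1.61 and 35.3 ± 4.19 CPM (limma adjusted p = 0.71), and Cyb5b at 69.4 ± 3.56 and 71.2 ± 6.13 CPM.

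Of 12 other steroid dehydrogenases and reductases, 2 fell and 2 rose. The hydroxysteroid dehydrogenase Akr1c14 fell 2.14-fold from 1.86 ± 0.245 to 0.872 ± 0.149 CPM (limma adjusted p = 0.0012), whereas its relatives Akr1c12 and Akr1c13 rose, from 0.942 ± 0.164 to 1.77 ± 0.183 CPM and from 4.06 ± 0.926 to 5.91 ± 0.848 CPM (limma adjusted p = 0.0037 and 0.030). These genes are members of a family with close copies, so their values are uncertain. Hsd17b7, which acts in cholesterol synthesis, fell from 7.15 ± 0.517 to 4.96 ± 1.21 CPM (limma adjusted p = 0.023). The calls of Akr1c13 and Hsd17b7 were lost in 5 and 6 of 19 alternatives. Hsd17b4 stood at 45.1 ± 1.87 and 43.0 ± 1.55 CPM and Hsd17b12 at 16.6 ± 0.916 and 15.4 ± 1.85 CPM, neither called.

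Cyp19a1, aromatase, which turns androgens into estrogens, rose 1.59-fold from 7.43 ± 0.822 to 11.8 ± 0.862 CPM (limma adjusted p = 0.00039). It stood at 6.50, 7.71, 7.09 and 8.41 CPM in the wild-type group, and 12.9, 11.96, 11.5 and 10.9 CPM in the knockout group, with no overlap. Sult2b1, a sulfotransferase of sterols, rose from 6.73 ± 0.520 to 8.51 ± 0.653 CPM (limma adjusted p = 0.030, lost in 5 of 19 alternatives). Sult1e1, the estrogen sulfotransferase, measured 8.34 ± 3.59 and 13.7 ± 4.94 CPM (limma adjusted p = 0.084), and it passed in 3 of 19 alternatives, without wild-type replicate 4, without knockout replicate 4 and without knockout replicates 1 and 4 together. Cyp1b1 stood at 25.4 ± 2.56 and 27.7 ± 1.34 CPM.

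Of 20 genes of the signal from the receptor through cyclic AMP and protein kinase A, 2 fell and 2 rose. Prkar2b, a regulatory subunit of protein kinase A, fell 1.53-fold from 11.5 ± 1.00 to 7.56 ± 0.977 CPM (limma adjusted p = 0.0013). The regulatory subunit Prkar1b rose from 6.95 ± 0.528 to 8.90 ± 0.648 CPM and the phosphodiesterase Pde8b from 3.88 ± 0.504 to 5.17 ± 0.370 CPM (limma adjusted p = 0.021 and 0.032). The adenylyl cyclase Adcy7 fell from 11.9 ± 1.62 to 9.29 ± 0.955 CPM (limma adjusted p = 0.042). Their calls were lost in 3 (Prkar1b), 5 (Pde8b) and 8 (Adcy7) of 19 alternatives. Prkar2a (264 ± 6.88 and 247 ± 17.6 CPM) and Pde8a (236 ± 10.1 and 246 ± 16.9 CPM) were not called.

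Of 16 transcriptional regulators of steroid synthesis genes, 3 rose and 1 fell. Nr4a3, an orphan nuclear receptor, rose from 3.31 ± 0.200 to 4.59 ± 0.365 CPM (limma adjusted p = 0.014). Zfpm1, a cofactor of GATA proteins, rose from 31.4 ± 1.37 to 37.0 ± 2.86 CPM and Cebpb from 1.12 ± 0.185 to 2.04 ± 0.901 CPM, while Mef2d fell from 24.1 ± 1.05 to 20.3 ± 2.06 CPM (limma adjusted p = 0.027, 0.048 and 0.042). Their calls were lost in 7 of 19 (Zfpm1), 7 of 18 (Cebpb) and 9 of 19 (Mef2d) alternatives. Sp1 stood at 61.9 ± 2.87 and 65.9 ± 3.24 CPM and Nr4a1, a nuclear receptor induced by luteinizing hormone, at 43.0 ± 2.84 and 46.3 ± 7.02 CPM, neither called.

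Of 17 hormone and paracrine receptors and ligands, Igf1, a growth factor that supports Leydig cells, fell from 8.39 ± 0.688 to 5.93 ± 0.507 CPM (limma adjusted p = 0.0040), and it was not called without knockout replicates 1 and 4 together. Amhr2 (202 ± 7.37 and 194 ± 11.9 CPM) and Inha (88.2 ± 8.85 and 79.3 ± 5.92 CPM) were not called. Of 7 androgen target and junction genes of Sertoli cells, 2 fell and none rose. Drd4 fell from 10.6 ± 0.735 to 7.43 ± 0.622 CPM (limma adjusted p = 0.0018). Rhox5, a homeobox gene of Sertoli cells that androgens induce, fell from 15.5 ± 0.647 to 12.2 ± 2.40 CPM (limma adjusted p = 0.049), a call lost in 12 of 19 alternatives. Cldn11 (79.8 ± 3.21 and 73.4 ± 5.82 CPM) and Cldn3 (64.8 ± 5.001 and 62.6 ± 6.33 CPM) were not called.

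**Figure D4:**
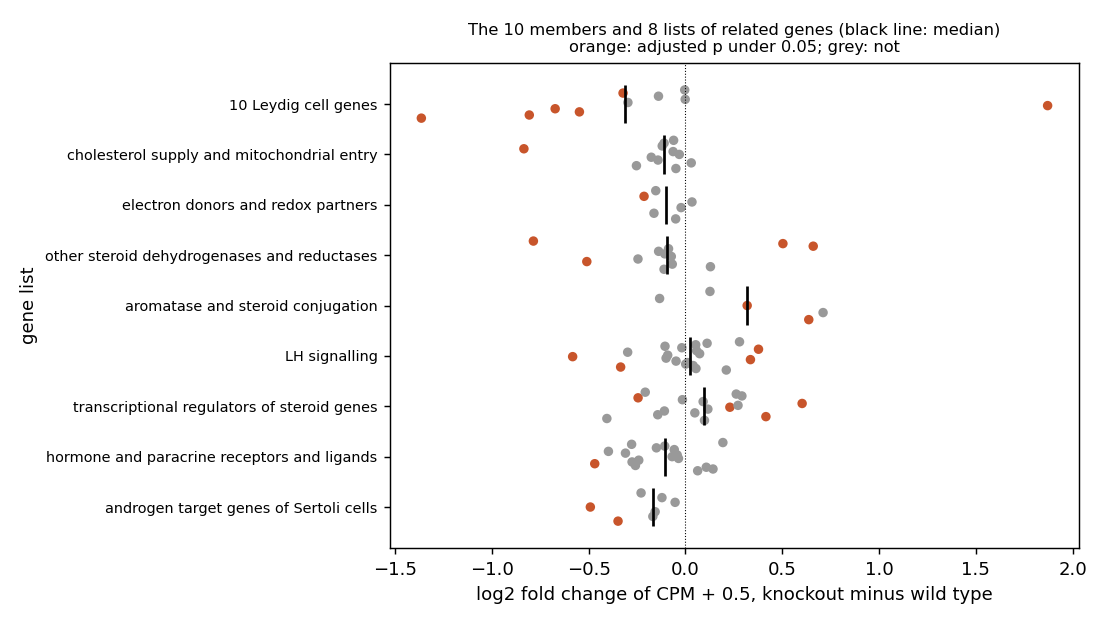
Log2 fold change of CPM + 0.5 (x axis) of each tested gene in the 10 Leydig cell genes and the 8 lists of related genes (y axis), with black lines at the medians and called genes in orange. The medians of the 8 lists lie between -0.17 and 0.32, against -0.31 for the 10 genes.

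Genes that neighbour the 10 were counted in GENCODE M21 within 500 kb between start sites. Of 165 neighbour entries, in which a gene near 2 members counts for each and Hsd3b1 and Hsd3b6 count as neighbours of each other, 10 rose and 11 fell (12.7%, against 16.9% of all tested genes). None of the 6 genes around Hsd3b1 was called, including Hsd3b6 and Hao2 (3.29 ± 0.390 and 4.30 ± 0.830 CPM, limma adjusted p = 0.11). Around Lhcgr 5 of 8 were called, 2 higher and 3 lower. Ston1, an endocytic adaptor gene, rose from 21.8 ± 2.31 to 34.0 ± 4.92 CPM (limma adjusted p = 0.00053). AC166350.1 rose from 0.517 ± 0.071 to 1.89 ± 0.207 CPM and AC165153.2 fell from 19.9 ± 0.962 to 13.6 ± 1.17 CPM (limma adjusted p = 1.9e-05 and 0.00033). Near Cyp17a1 5 of 28 were called. The gene model AC156982.1 fell from 3.36 ± 0.222 to 1.19 ± 0.228 CPM, Gm16726 fell from 11.3 ± 0.610 to 7.81 ± 1.12 CPM, and Gm6970 rose from 2.58 ± 0.343 to 4.43 ± 0.680 CPM (limma adjusted p = 2.4e-05, 0.0030 and 0.0026). Near Star, Ddhd2 and 1700047A11Rik fell (log2 fold changes -0.30 and -0.72), and near Cyp11a1, Islr and Loxl1 fell (-0.66 and -0.34). Near Hsd17b3, Ercc6l2 fell (-0.27) and Gm47513 and Gm4810 rose (0.48 and 0.49). Near Insl3, Ushbp1 rose and Gm18860 fell (1.00 and -0.83), and near Nr5a1, Nr6a1 rose (0.19). None of the 8 genes around Fdx1 was called, and of the 7 around Hsd3b6 the one called was Hsd3b1 itself.

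**Figure D5:**
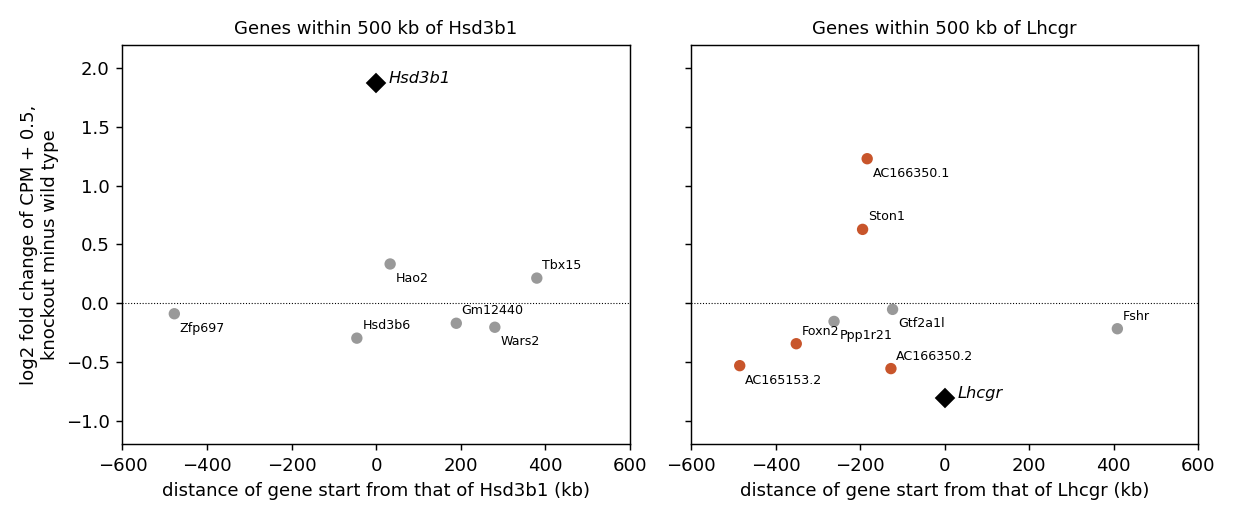
Log2 fold change of CPM + 0.5 (y axes) of tested genes by the distance of their start from that of Hsd3b1 (left) or Lhcgr (right) in kb (x axes), with called genes in orange and the central gene as a black diamond. Hsd3b1 is at 1.87 among 6 grey neighbours, while 5 of the 8 neighbours of Lhcgr are orange.

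Patterns over the 8 libraries were compared by the root mean square difference of log2(CPM + 0.5), centred on the wild-type mean, among 13358 other genes of at least 5 CPM. Nearest to Star were Rcn3, a calcium-binding protein of the secretory pathway (0.29), Col1a2, a fibrillar collagen gene (0.35), and Mpped1 (0.37). Rcn3 stood at 5.67, 9.91, 6.52 and 9.41 CPM in the wild-type group, and 2.69, 4.66, 4.78 and 1.98 CPM in the knockout group. Nearest to Hsd3b1 were 1700095A21Rik (0.28), 1700105P06Rik (0.31) and Fmn1, a formin (0.31), all higher in each library labelled knockout. None of the 6 is one of the 10 genes, and the measure describes these 8 libraries only. The 6 were picked by likeness over these libraries, so the patterns they share with Star or Hsd3b1 are built into the choice.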

How the data were processed

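RNA of whole adult testis was analysed in 8 libraries, 4 per genotype label. Per the labels' protocols, RNA was extracted with TRIzol, treated with DNase and made into TruSeq libraries. The submitters' processing notes name Trimmomatic, Subread, featureCounts and GRCm39 (mm39). Versions, annotation and strand setting are unknown here. The authors deposited a scaled signal per gene and library, named CPM in the file, with columns matched to sample titles by number, taking control as wild type and kpn as knockout. Column totals were 990244 to 1025489, and 100% of values were whole multiples, within 0.01, of the column's smallest value, which gave the reads. A floor of 3 reads is 0.0786 to 0.0968 CPM, for counting error only.

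The test was limma 3.58.1 in R 4.3.3 (variance trend, no covariate) on log2(CPM + 0.5). The 22027 genes averaging 0.5 CPM or more were tested, with Benjamini-Hochberg adjustment at 0.05, and was tested on simulated data. The plan, written for plain CPM, was kept. The alternatives were median ratio, TMM and quantile scaling, pseudocounts of 0.1 and 2, no filter and a filter at 2 CPM, edgeR 4.0.16 and DESeq2 1.42.0 on the recovered reads, the replicate block, each library left out and, added after the data were seen, knockout replicates 1 and 4 left out together. Symbols, positions and lengths came from GENCODE M21 (GRCm38, 24890 identifiers matched), another build than the authors used.

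The 10 genes, lists and rules were chosen with earlier results of these data known. Named were the 10 genes, up to 5 called genes of smallest p and the 2 most abundant others of each pathway list, up to 3 called neighbours of a member, and the 3 genes nearest in pattern to Star and Hsd3b1.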

Additional observations from a re-analysis of the deposited data

Results flagged for a closer look

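In 92 groups of 4 libraries (46 named genes under both labels), 5 held a library outside Dixon's limit for its gap to the next, and chance gives about 1 in 20 groups. None of the 10 Leydig cell genes was among them. In knockout replicate 3, Nr4a1 reached 56.8 CPM, where the rest of the group had 41.8 to 43.7 CPM, and Cebpb reached 3.39 CPM against 1.51 to 1.69 CPM. Cebpb was not called without that replicate, and its call was also lost when knockout replicate 1 or any 1 of the 4 wild-type libraries was left out. In wild-type replicate 3, Zfpm1 stood at 29.3 CPM against 32.04 to 32.12 CPM and Drd4 at 9.54 CPM against 10.95 to 11.04 CPM. In wild-type replicate 2, Sp1 stood at 57.6 CPM against 63.2 to 63.5 CPM.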

How the results depend on the processing

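The 6 calls among the 10 genes were the same genes in all 18 alternatives other than the pair left out, edgeR and DESeq2 included, and Hsd3b6 joined them without knockout replicate 3. TMM scaling called the same 3731 genes as the main test, so it was hardly a separate alternative. Leaving out 1 library gave 5 to 6 falls and 1 rise among the 10. Without knockout replicates 1 and 4 together, Fdx1 was not called and 4 fell, and the counts over all genes were 1228 higher and 1193 lower (from 1898 and 1833). With 1 library left out these were 1455 to 1800 and 1333 to 1772. In the 8 pathway lists the counts were 5 higher and 4 lower without knockout replicates 1 and 4 together, and 4 to 9 higher and 5 to 13 lower with 1 library left out, lowest without wild-type replicate 1 for rises and without wild-type replicate 1 or 4 or knockout replicate 4 for falls. Fewer samples were tested in all of these. Of the 19 pathway genes called, 7 kept their call in every alternative in which they were tested (Stard4, Akr1c12, Akr1c14, Cyp19a1, Nr4a3, Prkar2b and Drd4) and 12 lost it in at least 1. With the replicate number as a block 3446 genes were called in place of 3731, the same 6 of the 10 among them. Deviations of same-numbered libraries correlated at -0.031 to 0.039 over 22027 genes, so the numbers were not taken to pair libraries, and 1 of 8 libraries correlated best with its own number. For Zfpm1, Cyb5r3 and Mef2d the call was lost under the block. The lowest depth of the 10 genes was that of Lhcgr, with 198 reads in 1 library.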

Other observations

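Adrenal cortex markers, which the testis expresses weakly, were read as well. Of 5 tested, 1 rose and 2 fell, against 8.62% and 8.32% of all tested genes, and Mc2r was not in the matrix. Cyp21a1, the hydroxylase of corticosteroid synthesis, rose 2.09-fold from 3.26 ± 0.807 to 6.81 ± 1.14 CPM (limma adjusted p = 0.00053, n = 4 per group). It stood at 4.45, 2.92, 2.99 and 2.67 CPM in the wild-type group and 8.38, 6.72, 6.46 and 5.68 CPM in the knockout group, so the groups did not overlap. Mrap, the accessory protein of the corticotropin receptor, which adipocytes also express, fell from 6.98 ± 1.96 to 4.23 ± 1.43 CPM (limma adjusted p = 0.041), and it was lowest in knockout replicates 1 and 4 (3.27 and 2.74 CPM). Cyp11b1, already counted among the further Leydig cell genes, fell from 1.81 ± 0.367 to 1.184 ± 0.136 CPM (limma adjusted p = 0.040). Cyp11b2 and Akr1b7 were not called. These markers were chosen as a check of other cell types, and the stability of their calls was not tested.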
